A study of Mus musculus with 4 samples.

Results

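T cell activation is set by pairs of surface receptors that sit beside the antigen receptor. CD28 and ICOS are costimulatory, whereas CTLA-4, PD-1, BTLA, LAG-3 and TIGIT restrain the activated cell, and several of them compete for shared ligands: CTLA-4 and CD28 both bind CD80 and CD86, and TIGIT, CD226 and CD96 all bind the poliovirus receptor. Transcripts of 10 such receptor genes (Tigit, Cd226, Cd96, Ctla4, Cd28, Icos, Pdcd1, Lag3, Btla and Cd200) were examined, chosen by gene symbol among the 37583 features of the count tables. Each was found as 1 feature.

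The series asked how blocking the protein kinase CK2 alters transcripts in CD4+ T cells at the start of Th17 differentiation. All cells were naive CD4+ T cells sorted from the spleen of C57BL/6 mice, activated on plates with antibodies to CD3 and CD28 for 24 h under the condition labelled aTh17 (IL-1β, IL-6 and IL-23 plus anti-IL-4 and anti-IFN-γ, with no TGF-β listed). There were 4 groups of 1 library each: cells with the CK2 inhibitor DMAT at 1.5 µM, cells with the CK2 inhibitor CX4945 at 1 µM, and for each inhibitor the control that its title names, cultured without it. What the controls received in place of an inhibitor, the number and age of the mice and any pooling are not given in the sources used here. Each inhibitor library with its titled control is called an experiment below. The labels do not say whether the pairs were separate cultures, animals or days. All cells were stimulated through CD28, whose gene is among those described.

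The libraries held 2056635 to 2772525 exon reads, and 81.3 to 81.7% of these mapped to 1 place. Markers of T cells were present in every library, with 7 of 7 genes (Cd3d, Cd3e, Cd3g, Cd247, Cd4, Thy1 and Lat) detected and a summed level of 1105 to 1328 CPM (exon reads scaled to a common library size with TMM). Of the natural killer cell markers 4 of 4 were at 0 in all libraries, the CD8 markers summed to 2.36 to 4.88 CPM, and the B cell and myeloid markers to at most 2.17 and 0.724 CPM. Foxp3, which defines regulatory T cells, had 2 to 4 reads in a library (25% of its reads unique over all libraries). The other regulatory T cell marker, Ikzf2, had 4 to 12 reads, and both summed to 3.42 to 5.90 CPM. In these bulk cultures fewer cells with a transcript and less transcript per cell cannot be told apart.

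Per kilobase of exon, the receptor genes covered a wide range of levels. Btla, which encodes an inhibitory receptor for the TNF receptor family member HVEM, had the highest mean RPKM (CPM per kilobase of exon), with 124 to 196 RPKM in the 4 libraries. Cd200, whose product is a ligand of the inhibitory receptor CD200R, followed with 124 to 180 RPKM, and Cd28 with 103 to 141 RPKM. The ranges of these 3 genes overlapped, so their order is not fixed by these libraries. Icos was at 58.4 to 79.6 RPKM, Pdcd1 (PD-1) at 42.7 to 54.2, Ctla4 at 30.6 to 70.4 and Lag3 at 27.6 to 44.0. The ranges of Pdcd1, Ctla4 and Lag3 overlapped. That of Icos lay below all values of Cd28 and above all values of Pdcd1, but overlapped that of Ctla4. Tigit was at 4.09 to 26.3 RPKM, Cd226, the costimulatory counterpart of Tigit, at 4.76 to 11.3, and Cd96 at 1.16 to 2.70. The ranges of Tigit and Cd226 overlapped, all values of Cd96 lay below them, and all values of Lag3 lay above them. In mean RPKM Btla stood above 96.6% of the 9629 genes tested, Tigit above 53.5% and Cd96 above 8.61%.

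**Figure D1:**
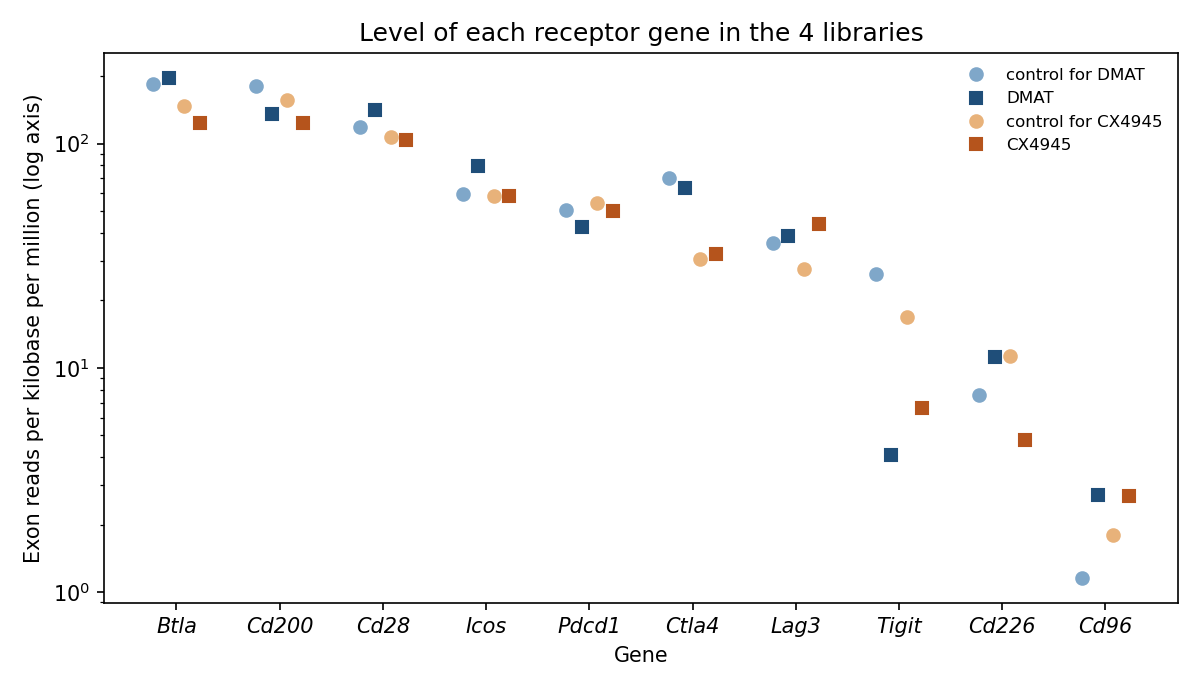
Level of each receptor gene in RPKM (log axis), with 1 point per library; circles are the controls and squares the inhibitor libraries. Tigit was lower in both inhibitor libraries (4.09 and 6.59) than in both controls (26.3 and 16.8), and Ctla4 split by experiment rather than by inhibitor.

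Tigit was lower with both CK2 inhibitors and was the 1 receptor gene that passed the joint test. It had 70 exon reads in the control for DMAT and 10 with DMAT, and 37 in the control for CX4945 and 13 with CX4945, which is 25.3, 3.93, 16.2 and 6.35 CPM. Both inhibitor libraries lay below both controls. The DMAT library was 6.44-fold below its control (95% counting interval 3.30 to 14.0). The CX4945 library was 2.55-fold below its own (1.32 to 5.23). The doses and experiments of the inhibitors differ, so these values stand side by side and were not compared. The controls themselves differed 1.57-fold (1.04 to 2.40), less than either inhibitor library from its control. A log2 ratio of at least 1 in size (with a prior count of 2) was found in both pairs, at -2.46 and -1.24, and among all genes 0.151% were that much lower in both.

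A joint fit of both experiments took DMAT and CX4945 as 1 inhibitor condition, with the titled pair as block. Tigit fell in it (log2 fold change -2.03, SE 0.38, edgeR quasi-likelihood test, BH adjusted p = 0.0135), lower in 2 of 2 pairs. The call changed with the model while the fold did not: without the block the log2 fold change was again -2.03 but the adjusted p was 0.745, and with DESeq2 and the block it was -2.01 with an adjusted p of 1.00. Of all 9629 genes, 1 passed without the block and 3 passed with DESeq2, against 54 in the joint fit. In 4 further fits 1 library was left out, and with it the block. The log2 fold change of Tigit was -1.66 without the control for DMAT and -1.70 without DMAT. It was -2.30 without the control for CX4945 and -2.41 without CX4945. In each such fit 1 side had a single library, which was taken to vary like the others, so no call is read from them.

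Reads that the exon counts leave out had the same direction. Tigit reads that fell inside the gene but outside its exons numbered 16 in the control for DMAT and 2 with DMAT (ratio 0.136, counting interval 0.0151 to 0.578), and 12 and 5 in the CX4945 pair (ratio 0.465, 0.128 to 1.42). Exon-exon reads, which span a splice junction and are a subset of the exon reads, numbered 17 and 4 in the DMAT pair and 11 and 1 in the CX4945 pair. The interval for reads outside exons in the CX4945 pair includes 1, so a difference there was not detectable at this depth. In all libraries together 99.2% of the Tigit exon reads were unique.

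Tigit lies on chromosome 16 (mm9, 43648974 to 43664297), the chromosome that also carries Btla (45224428 to 45253008), Cd200 (45382248 to 45409166) and Cd96 (46035770 to 46120364). No other feature of the tables overlaps it. From 1 Mb before to 3 Mb after its start, 18 genes had at least 20 reads in each pair. Apart from Tigit itself, all of them start after it. The nearest gene before it, Zbtb20, 6.26 kb away, had 3 and 5 reads in the DMAT pair, too few to enter. The side before Tigit was thus not measured. Leaving out the 4 receptor genes, the log2 ratios of the 14 others ran from -0.59 to 0.29 with DMAT and from -0.25 to 0.82 with CX4945, so none of them was 2-fold lower or higher.

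**Figure D2:**
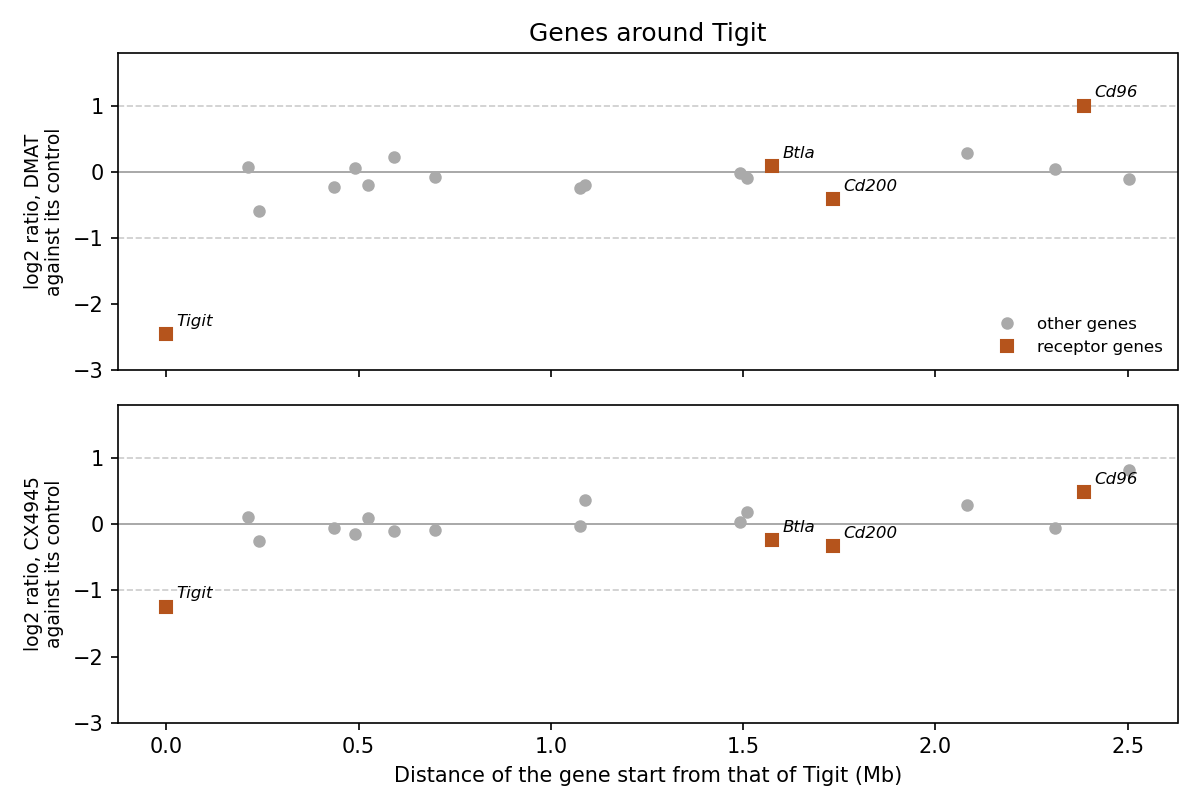
Log2 ratio of each gene against the distance of its start from that of Tigit (in Mb), with DMAT above and CX4945 below; squares are receptor genes, grey points other genes and dashed lines 2-fold. Tigit stands at -2.46 and -1.24, while the 14 other genes lie between -0.59 and 0.82.

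The promoters of Tigit and Cd200, the genes lower in both pairs by their counting intervals, and of Ctla4, which differed most between the controls, are shown for their sequence. They are the 250 bases before the annotated start in RefSeq (GRCm38.p6, a later build than that of the counts), written 5′ to 3′ on the gene's strand, and RefSeq promoters were matched for 6 of the 10 genes. Capitals mark the NFAT core GGAAA or its complement TTTCC. NFAT is the calcium-dependent factor of antigen receptor signalling.
Tigit, chr16:43664185-43664434, minus strand: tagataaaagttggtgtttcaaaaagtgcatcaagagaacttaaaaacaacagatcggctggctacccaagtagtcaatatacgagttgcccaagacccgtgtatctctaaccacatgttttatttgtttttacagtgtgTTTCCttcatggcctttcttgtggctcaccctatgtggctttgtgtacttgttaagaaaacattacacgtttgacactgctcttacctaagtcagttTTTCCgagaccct
Cd200, chr16:45409054-45409303, minus strand: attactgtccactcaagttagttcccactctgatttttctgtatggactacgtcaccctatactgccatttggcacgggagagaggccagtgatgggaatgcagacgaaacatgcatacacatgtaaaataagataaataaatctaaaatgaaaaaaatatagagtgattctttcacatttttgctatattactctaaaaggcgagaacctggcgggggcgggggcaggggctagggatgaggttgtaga
Ctla4, chr1:60908775-60909024, plus strand: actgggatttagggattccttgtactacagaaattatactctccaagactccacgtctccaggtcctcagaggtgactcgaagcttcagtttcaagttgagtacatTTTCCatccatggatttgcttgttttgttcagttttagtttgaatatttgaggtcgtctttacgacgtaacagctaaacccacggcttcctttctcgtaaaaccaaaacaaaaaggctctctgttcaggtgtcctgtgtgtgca
On both strands the NFAT core occurred 2 times in the Tigit window, 1 time in that of Ctla4 and 0 times in that of Cd200, and 55.6% of 32851 promoters of this length hold it. The AP-1 motif TGANTCA (in 6.75% of promoters) and the STAT motif TTCNNNGAA (in 7.02%) occurred 0 times in these 3 windows. Of the other matched windows, not shown, that of Cd96 held 4 NFAT cores and 1 STAT motif. That of Pdcd1 held 2 NFAT cores and that of Btla 0. A match is a description of the letters and not a bound site.

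Genes whose values over the 4 libraries were nearest to those of Tigit were found by the distance between log2 CPM values centred on each gene's mean, among 9257 other genes with at least 50 reads. The nearest were Il18rap, a subunit of the IL-18 receptor, Il23r, the IL-23 receptor gene, the Th17 cytokine gene Il17f, Frmd4b and Rpsa-ps12. The distances ran from 0.494 (Il18rap) to 0.712 (Rpsa-ps12) on the log2 scale. The points are 4 libraries, which is too few for a correlation. The Th17 markers, of which Il17f is the most abundant, moved in the same direction: 5 of 5 were detected, and they summed to 536 CPM in the control for DMAT and 116 CPM with DMAT, and to 376 and 142 CPM in the CX4945 pair. Their part in the level of Tigit was not tested.

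Cd226 encodes the costimulatory receptor that shares ligands with TIGIT. It had 49 exon reads in the control for DMAT, 67 with DMAT, 61 in the control for CX4945 and 23 with CX4945. The lowest library was that with CX4945, and the DMAT library lay beside the control for CX4945. Cd226 was 1.49-fold higher with DMAT (counting interval 1.01 to 2.19) and 2.37-fold lower with CX4945 (1.45 to 4.02), while the control for CX4945 was 1.50-fold above that for DMAT (1.02 to 2.24). In the joint fit it did not pass (log2 fold change -0.21 ± 0.33, edgeR quasi-likelihood test, adjusted p = 0.953). In reads outside exons the gene had 41 and 35 in the DMAT pair (ratio 0.928, 0.574 to 1.49) and 40 and 23 in the CX4945 pair (0.642, 0.367 to 1.10), and both intervals include 1. Cd226 lies on chromosome 18 and 100% of its exon reads were unique.

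The ratio of Tigit to Cd226 reads within a library does not depend on scaling. It was 1.43 in the control for DMAT (counting interval 0.978 to 2.1) and 0.149 with DMAT (0.0685 to 0.292). In the CX4945 pair it was 0.607 in the control (0.392 to 0.927) and 0.565 with the inhibitor (0.263 to 1.16). The intervals of the DMAT pair do not overlap, but neither do those of the controls, which received no inhibitor, whereas in the CX4945 pair both genes were lower and the ratio was not distinguishable.

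**Figure D3:**
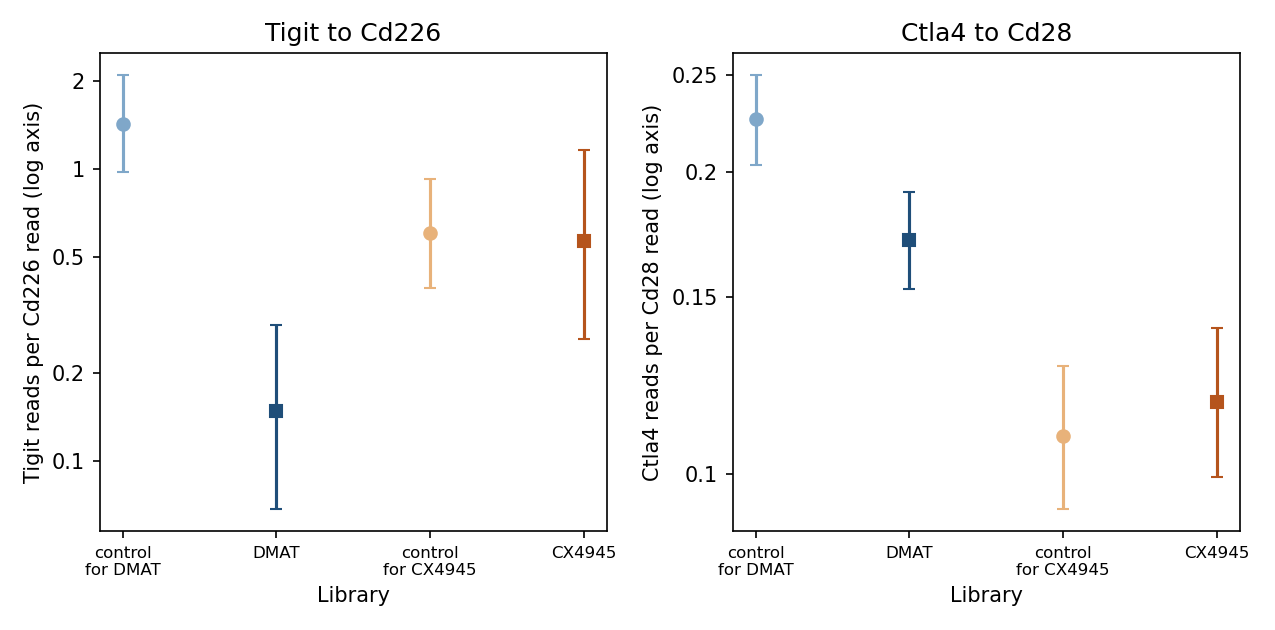
Reads of Tigit per read of Cd226 (left) and of Ctla4 per read of Cd28 (right) in each library, on log axes, with 95% counting intervals as bars. Tigit to Cd226 was 1.43 in the control for DMAT and 0.149 with DMAT, and Ctla4 to Cd28 was higher in both libraries of the DMAT experiment (0.226 and 0.171) than in both of the CX4945 experiment (0.109 and 0.118).

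Cd96, the other receptor of this family, was close to the limit of detection. It had 7 exon reads in the control for DMAT, 15 with DMAT, 9 in the control for CX4945 and 12 with CX4945. Both inhibitor libraries were above both controls, but the intervals of the ratios include 1 in each pair (2.33, 0.894 to 6.75, and 1.49, 0.576 to 4.0). Its log2 ratio of 1.00 with DMAT is just at the 2-fold limit. In the joint fit it did not pass (0.89 ± 0.53, edgeR quasi-likelihood test, adjusted p = 0.786).

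The CD28 family genes Cd28, Ctla4 and Icos lie next to each other on chromosome 1 (mm9), Cd28 from 60773644 to 60830203, Ctla4 from 60943844 to 60972676 and Icos from 61034771 to 61057164, with gaps of 113.6 and 62.1 kb. Cd28 and Icos were higher with DMAT, whereas for Ctla4 the counting interval of that ratio included 1. Cd28, the main costimulatory receptor of naive T cells, had 2005 and 2192 reads in the DMAT pair and 1496 and 1296 in the CX4945 pair. It was 1.19-fold higher with DMAT (1.12 to 1.26), and with CX4945 the ratio was 0.967 (0.897 to 1.04). Icos, the inducible costimulator, had 564 and 694 reads in the DMAT pair and 459 and 410 in the CX4945 pair. It was 1.34-fold higher with DMAT (1.19 to 1.50), above the 3 other libraries, which lay within 200 to 204 CPM, and with CX4945 the ratio was 0.998 (0.871 to 1.14). In the joint fit Cd28 (0.11 ± 0.09, edgeR adjusted p = 0.887) and Icos (0.23 ± 0.11, adjusted p = 0.685) did not pass. The Icos to Cd28 read ratio lay between 0.281 and 0.317 in the 4 libraries, with intervals that all overlap.

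Ctla4, the inhibitory counterpart of Cd28, differed between the experiments and not detectably between inhibitor and control. It had 453 exon reads in the control for DMAT and 375 with DMAT, but 163 in the control for CX4945 and 153 with CX4945. In CPM these are 164, 148, 71.3 and 74.7, so both libraries of the DMAT experiment lay above both of the CX4945 experiment. The controls differed 2.30-fold (1.92 to 2.77), a log2 ratio of -1.19, and at this 2-fold limit 2.29% of 9564 genes differed between the controls (0.962% higher, 1.33% lower). The ratios to the own control were 0.899 with DMAT (0.782 to 1.03) and 1.05 with CX4945 (0.835 to 1.32), and the joint log2 fold change was -0.06 ± 0.12 (edgeR quasi-likelihood test, adjusted p = 0.972). The choice of control decides the value: against the other experiment's control the log2 ratio was 1.04 with DMAT and -1.13 with CX4945. Reads outside the exons of Ctla4 had the same split, 161 and 127 against 71 and 46, as did its exon-exon reads, 33 and 23 against 13 and 8. Ctla4 to Cd28 read ratios were 0.226 (0.204 to 0.25), 0.171 (0.153 to 0.191), 0.109 (0.0921 to 0.128) and 0.118 (0.0992 to 0.140), in the order in which the read counts are given. The ratio was thus lower with DMAT than in its control, and the CX4945 pair overlapped.

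Pdcd1, which encodes PD-1, lies elsewhere on chromosome 1 (95934884 to 95949130). It had 270 and 209 exon reads in the DMAT pair and 239 and 197 in the CX4945 pair, with ratios of 0.841 (0.699 to 1.01) and 0.921 (0.758 to 1.12). Both intervals include 1, and the gene did not pass in the joint fit (-0.18 ± 0.13, edgeR quasi-likelihood test, adjusted p = 0.858). Its exon-exon reads were lower in both pairs, 30 and 11 with DMAT (ratio 0.398, 0.180 to 0.818) and 34 and 16 with CX4945 (0.526, 0.271 to 0.978). They made up 11.1% and 14.2% of Pdcd1 exon reads in the controls and 5.26% and 8.12% with DMAT and CX4945, whereas over all genes the share was 23.2 to 23.8% in every library. These counts are small, at 11 to 34 reads. How many of all genes differed as much in exon-exon reads was not determined, and the cause was not tested.

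Lag3, an inhibitory receptor for MHC class II, lies on chromosome 6 (124854379 to 124861723). It had 210 and 207 reads in the DMAT pair and 133 and 190 in the CX4945 pair. The control for CX4945 was the lowest library, and the other 3 lay within 76.0 to 92.8 CPM. Lag3 was 1.60-fold higher with CX4945 (1.27 to 2.01), and the ratio with DMAT was 1.07 (0.880 to 1.30). Reads outside exons numbered 30 and 45 in the CX4945 pair (ratio 1.68, 1.03 to 2.75). In the joint fit Lag3 did not pass (0.37 ± 0.15, edgeR quasi-likelihood test, adjusted p = 0.525), and its control library was 1.31-fold below that for DMAT (1.05 to 1.64).

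Btla and Cd200 are neighbours, 129.2 kb apart, and both were abundant. Btla had 1666 and 1624 exon reads in the DMAT pair and 1091 and 828 in the CX4945 pair. The ratio was 1.06 with DMAT (0.989 to 1.13), and Btla was 1.18-fold lower with CX4945 (1.08 to 1.29), less than the 1.26-fold difference between the controls (1.17 to 1.37). In the joint fit it did not pass (-0.06 ± 0.09, edgeR quasi-likelihood test, adjusted p = 0.952). Btla was also rich in reads outside exons, with 59.9, 73.0, 61.9 and 60.7 such reads per 100 unique exon reads in the control for DMAT, DMAT, the control for CX4945 and CX4945, where all genes together gave 9.91 to 10.4. The highest of these was the DMAT library, in which reads outside the exons of Btla were 1.29-fold higher than in the control (1.18 to 1.40).

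Cd200 was lower in both pairs by a small amount. It had 1650 and 1143 reads in the DMAT pair and 1182 and 842 in the CX4945 pair, or 597, 450, 517 and 411 CPM. Both inhibitor libraries lay below both controls. The fall relative to the own control was 1.33-fold in the DMAT library (1.23 to 1.43) and 1.26-fold in the CX4945 library (1.15 to 1.37), and the controls differed 1.16-fold (1.07 to 1.25). The joint log2 fold change was -0.36 ± 0.09 and just missed the threshold (edgeR quasi-likelihood test, adjusted p = 0.0560). With DESeq2 size factors, total-count scaling or unique reads it passed (edgeR adjusted p = 0.0304, 0.0111 and 0.00425). It did not pass without the block (0.999), with DESeq2 and the block (1.00) or without a filter on low counts (0.0539). In the 4 fits without 1 library and the block the log2 fold change of Cd200 was -0.46 to -0.26. Reads outside its exons numbered 196 and 184 in the DMAT pair (ratio 1.02, 0.830 to 1.25) and 139 and 97 in the CX4945 pair (0.779, 0.595 to 1.02). Both intervals include 1. Its exon-exon reads numbered 192 and 131 in the DMAT pair (ratio 0.741, 0.589 to 0.931). In the CX4945 pair they numbered 127 and 109 (0.958, 0.735 to 1.25), an interval that includes 1.

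**Figure D4:**
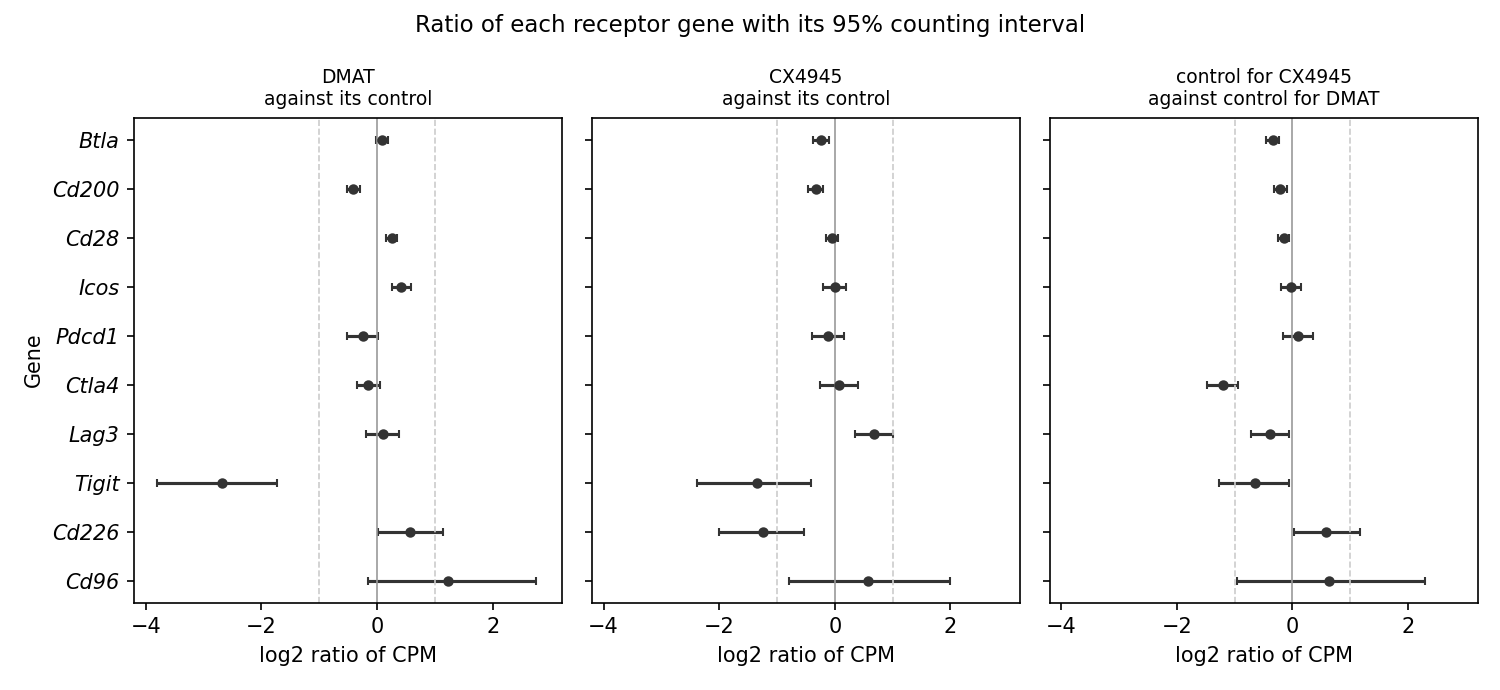
Log2 ratio of CPM (computed without a prior count) of each receptor gene in the 3 comparisons, with 95% counting intervals as bars and dashed lines at 2-fold. Tigit lies left of 0 in both inhibitor pairs, at 6.44-fold and 2.55-fold lower, and Ctla4 departs most between the controls, at 2.30-fold lower.

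Across the 10 genes the changes had no common direction. In the joint fit 1 gene passed, Tigit, and 9 did not, where 0.561% of the 9629 genes tested passed, 0.177% higher and 0.384% lower. An unadjusted p under 0.05 was found for 4 of the 10 (Tigit, Cd200, Lag3 and Icos) and for 7.23% of all genes. With DMAT 6 of the 10 ratios were above 1 and 4 below, and the median log2 ratio was 0.09 (0.00 over all 9649 genes). With CX4945 3 were above 1 and 7 below, and the median was -0.08 (0.00 over 9358 genes). At 2-fold, Tigit was lower and Cd96 higher with DMAT, and Tigit and Cd226 were lower with CX4945. Of all genes 2.37% passed that limit in the DMAT pair (1.06% higher, 1.32% lower) and 1.78% in the CX4945 pair (0.855% higher, 0.93% lower).

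By the counting interval alone, 5 of the 10 genes differed from their control with DMAT (Icos, Cd28 and Cd226 higher, Tigit and Cd200 lower) and 5 with CX4945 (Lag3 higher, Tigit, Cd226, Btla and Cd200 lower). Such intervals left out 1 for 18.9% of all genes in the DMAT pair (9% higher, 9.89% lower) and for 14.8% in the CX4945 pair (7.06% higher, 7.75% lower), and an abundant gene reaches this more easily. Between the controls, which come from different experiments and were cultured without an inhibitor, it held for 7 of the 9 receptor genes with enough reads (1 higher, 6 lower). The share of all genes was 18.6% (8.87% higher, 9.77% lower). The log2 ratio was larger in size than that between the controls for 6 of the 10 genes with DMAT, for 5 with CX4945 and for 3 with both, which were Tigit, Pdcd1 and Cd200. Of the 9262 genes with enough reads in both pairs the shares were 49.1%, 50.1% and 32.2%, near those of the receptor genes. Tigit and Cd200 were the 2 genes whose intervals lay below 1 in both pairs, as did those of 1.68% of 9262 genes.

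The ligands and counter-receptors of these genes ranged from undetected to well detected in the cultures. Fgl1 had 0 reads in every library, whereas Cd274 (PD-L1) had 85 to 183 reads and Lgals9 95 to 136. Of 14 (Cd80, Cd86, Icosl, Cd274, Pdcd1lg2, Tnfrsf14, Pvr, Pvrl1, Pvrl2, Pvrl3, Cd200r1, Lgals3, Lgals9 and Fgl1), 8 entered the joint fit and 0 passed with edgeR (0 at an unadjusted p under 0.05, and 0 with DESeq2). Pvr, the shared ligand of TIGIT, CD226 and CD96, had 107 and 85 reads in the DMAT pair and 88 and 87 in the CX4945 pair. Pdcd1lg2 (PD-L2) had 34 and 11 in the DMAT pair and 61 and 59 in the CX4945 pair, with log2 ratios of -1.35 and 0.11. Pvrl1 stood at -0.50 and -0.70 and Tnfrsf14, which encodes the BTLA ligand HVEM, at -0.45 and 0.01. Cd200r1, the receptor for CD200, had 15 and 4 reads in the DMAT pair, too few to enter that comparison, and 16 and 13 in the CX4945 pair (joint log2 fold change -0.75, edgeR adjusted p = 0.856). Lgals3, a galectin, was 2-fold lower with DMAT and 2-fold higher with CX4945 (-1.27 and 1.15). Like Fgl1, Cd274, Lgals9, Pvr and Cd200r1 it was chosen after its values were seen.

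Of 19 other co-receptors, 11 entered the joint fit and 0 passed with edgeR (4 at an unadjusted p under 0.05, and 0 with DESeq2). Of all genes tested, 7.23% had an unadjusted p under 0.05 in the edgeR fit. The median joint log2 fold change of the 11 was -0.02 against 0.00 for all genes. Crtam, an adhesion receptor of activated T cells, stood at a log2 ratio of -1.5 in the DMAT pair and -0.07 in the CX4945 pair. Cd27, a costimulatory TNF receptor, stood at 0.96 and 0.16 (26.4% of its reads unique), and Slamf1 at -0.32 and -0.37. Chosen after their values were seen, the inhibitory receptor gene Havcr2 (TIM-3) had 1 read in all 4 libraries together, and Cd244 and Klrg1 had 0, which allows up to 1.09 to 1.46 CPM per library.

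Among 26 genes of receptor signalling 1 passed, where 0.561% of all genes tested passed. Pik3cd, the p110δ catalytic subunit of the PI3-kinase that CD28 and ICOS recruit, had 509 and 730 reads in the DMAT pair and 506 and 585 in the CX4945 pair. It rose in the joint fit (0.51 ± 0.10 SE on the log2 scale, edgeR quasi-likelihood test, adjusted p = 0.0144), with log2 ratios of 0.64 and 0.37, against 0.26 between the controls. The call was lost without the block (edgeR adjusted p = 0.999) and with DESeq2 (adjusted p = 1.00), while the log2 fold change was 0.51 in both. In the fits without 1 library and the block the log2 fold change of Pik3cd was 0.37 to 0.64. The other 25 did not pass. The adaptor gene Grap2 stood at 0.15 and 0.56, and the adaptor gene Lax1 at 0.49 and 0.45, in the DMAT and CX4945 pairs. Between the controls their log2 ratios were 0.47 and 1.20. Lax1 had 14 and 19 reads in the DMAT pair and 29 and 36 in the CX4945 pair.

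Transcription factors linked to checkpoint receptor genes did not pass the test with edgeR, with 0 of 11 (3 at an unadjusted p under 0.05, and 0 with DESeq2). Tbx21, which encodes T-bet, had 91 and 29 reads in the DMAT pair and 87 and 85 in the CX4945 pair. Nfatc1 stood at log2 ratios of 0.42 and 0.20, and its log2 ratio between the controls was 0.78. Maf, a factor of the Th17 and IL-10 programmes, stood at 0.00 and 0.65. Among 12 activation genes 0 passed with edgeR (6 at an unadjusted p under 0.05, 0 with DESeq2, 1 with DESeq2 size factors or total-count scaling and 2 with unique reads). For both lists, the share of all genes tested with an unadjusted p under 0.05 in the edgeR fit was 7.23%. Nr4a1, Egr2 and Irf4 are on both lists and are counted in each. The adhesion receptor Cd44 had log2 ratios of -0.78 and -0.54 (edgeR adjusted p = 0.0694), the early activation marker Cd69 0.48 and 0.20 (0.176) and the transferrin receptor Tfrc -0.19 and -0.35 (0.233). The median of the 12 was 0.02, beside 0.00 for all genes.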

How the data were processed

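The data were 4 RNA-seq libraries, 1 per group. The authors deposited raw read counts per feature, and the count of total exon reads was used, with unique exon, exon-exon and gene reads as further readouts. Per the submitters' processing notes, CASAVA 1.8.2 and the mouse build mm9 were used. The aligner, annotation, counting rule and strand are not given in the sources used here.

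Libraries were scaled with TMM factors (0.996 to 1.01). Log2 ratios were taken of CPM after adding a prior count of 2. Genes needed 20 reads summed over a pair, and the fold limit was 2. RPKM is CPM per kilobase of deposited exon length. Ratios carry exact conditional (Clopper-Pearson) 95% intervals, which like the floor of 3 counts cover counting error only. Both experiments were fitted together by edgeR 4.0.16 (R 4.3.3; quasi-likelihood test, Benjamini-Hochberg adjustment over 9629 genes, threshold 0.05), with the pair named in the titles as a block. That fit has 1 residual degree of freedom and 19.7 prior degrees of freedom, and the spread of a gene therefore comes mainly from the trend over other genes. Its SE is the log2 fold change divided by the square root of F. Both inhibitors, which differ in compound and dose, enter that fit as 1 condition. Its residual spread therefore includes any difference between their effects. Separate cultures or animals are not named in the labels, and p-values then reflect only how these libraries vary, possibly for technical reasons. Between any 2 libraries the chi-square per degree of freedom was 2.56 to 5.63, so none was a duplicate.

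The receptor genes and all lists were chosen with earlier results of these data known. Named are the 10 receptor genes, list genes past the joint test, the 3 genes of each list with the largest absolute mean of the 2 pairs' log2 ratios among those with at least 20 reads in each pair, the 5 genes nearest to Tigit, and 2-fold genes within 500 kb of a receptor gene, of which there were none beyond the receptor genes. Alternatives were other scalings, unique reads, another prior count, no filter, no block, DESeq2 1.42.0, other controls and leaving out each library.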

Additional observations from a re-analysis of the deposited data

Results flagged for a closer look

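Cd226 moved in opposite directions in the 2 experiments, which is why it is listed here: its log2 ratio was 0.55 with DMAT and -1.19 with CX4945, and the counting intervals lay on opposite sides of 1. With 1 library in each group the difference was not tested, and the inhibitors differ in compound, dose and experiment, which cannot be told apart. Opposite directions by counting intervals were found for 1.49% of 9262 genes. The rise of Cd226 with DMAT was no larger than its log2 ratio of 0.57 between the controls, and the counting interval of that rise began at 1.01. In reads outside exons the ratios were 0.928 with DMAT (0.574 to 1.49) and 0.642 with CX4945 (0.367 to 1.10), and both intervals include 1.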

How the results depend on the processing

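With 1 library per group, no ratio within a pair has a replicate check. The number of receptor genes past the joint test was 1, and it became 0 without the block (edgeR, with 2 at an unadjusted p under 0.05), 0 with DESeq2 and the block (2 at an unadjusted p under 0.05), and 2 with DESeq2 size factors, 2 with library totals as scale and 2 with unique reads, Cd200 being the added gene. The counts over all genes moved likewise, from 54 to 1 without the block and 3 with DESeq2, and to 84, 112 and 108 in the settings that added Cd200. Fits without 1 library and the block have a single library on 1 side, so no calls are read from them. The log2 fold change of Tigit ran from -2.41 to -1.66 in these fits. The number at least 2-fold fell from 2 to 1 with DMAT and from 2 to 1 with CX4945 when the mean of both controls was the reference. With the other experiment's control as reference it stayed at 2, but the genes changed. With DMAT, Cd96 dropped to a log2 ratio of 0.50 and Ctla4 entered at 1.04. With CX4945, Cd226 dropped to -0.62 and Ctla4 entered at -1.13. Against the other experiment's control Cd226 with DMAT changed sign, to -0.0161, and the cause was not tested. Depth limits Cd96, Tigit and Cd226, with at most 70 exon reads in a library. The block is the pair in the titles. The labels give no replicate numbers.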
